A study of Arabidopsis thaliana with 2 samples.

Results

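The sites described here are the 940 MBD9 summits in 5 intervals taken as the pericentromeric heterochromatin of *Arabidopsis thaliana*. They come from 13993 summits on the 5 nuclear chromosomes. A summit is the single base at which a ChIP-seq peak is highest, and its score is -log10 of its q value. Members were chosen by position alone, as every summit between 11.5 and 17.7 Mb on chromosome 1, 1.1 and 7.2 Mb on chromosome 2, 10.3 and 17.3 Mb on chromosome 3, 1.5 and 6.3 Mb on chromosome 4, and 9.0 and 16 Mb on chromosome 5. The other 13053 summits lie outside these intervals and are called arm summits. The chromatin was immunoprecipitated through the FLAG tag from a T4 transgenic line, in which the MBD9 promoter drives MBD9-3xFLAG in the *mbd9-3* mutant, and with the same antibody from wild-type plants without a tag, both in the Col-0 ecotype. Plants were collected 13 days after germination, with source material given as seedlings and the stage as shoots. Each group had 1 library, and the wild-type library served as the control against which peaks were called once. There is therefore no replicate check for any value, and all intervals given are 95% intervals that cover counting error only.

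MBD9 belongs to the methyl-CpG-binding domain family and associates with SWR1, a remodeling complex that exchanges H2A for the variant H2A.Z in nucleosomes. Pericentromeric heterochromatin flanks the centromeric satellite repeats. It is rich in transposable elements, carries dense DNA methylation and histone H3 lysine 9 dimethylation, and is mostly silent. Genes are embedded in it as islands between transposons, and many of them are expressed. In the gene annotation used here, which is RefSeq's for TAIR10.1, genes derived from transposable elements are listed as pseudogenes, together with decayed copies of other genes.

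Averaged over the intervals, the annotation bore out their label. The intervals held 121 pseudogenes per Mb, against 12.1 per Mb on the arms, and 109 protein-coding genes per Mb, against 273 per Mb on the arms. Near the borders this was less so. The outermost 0.5 Mb had 59.0 pseudogenes and 207 protein-coding genes per Mb and held 378 of the 940 summits. The next 0.5 Mb had 71.6 and 173 per Mb and held 271. Of all bases in the intervals, 84.1% started a 50-mer that occurs once in the nuclear genome, against 97.5% on the arms. This share matters because the authors kept only reads that map to 1 place. Almost all summits lay at such bases, 99.5% of those in the pericentromere and 99.5% of those on the arms. DNA methylation and histone marks were not measured in the data used here.

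Sequences around 7 pericentromeric summits are shown first, since their letters bear on the motif counts and on what kind of DNA carries a summit. The first 3 are the highest-scoring summits of chromosomes 3, 2 and 1. The fourth lies in an exon of a long non-coding RNA gene far from protein-coding genes, the fifth in a Sadhu retrotransposon, the sixth in an annotated pseudogene of chromosome 5, and the last is the summit farthest from any protein-coding gene. Each run covers 50 bp on either side of the summit, on the plus strand of TAIR10.1. Capitals mark each match, on either strand, to the G-box core CACGTG, to the related motif ACGTGG, to the site II motif TGGGCC, to the W-box TTGACC, to the TATA box as TATAAA, to the repeat GAGAGA and to the telo-box AAACCCTA. A match to ACGTGG can share 5 bases with a match to CACGTG.
chr3:11798777-11798877: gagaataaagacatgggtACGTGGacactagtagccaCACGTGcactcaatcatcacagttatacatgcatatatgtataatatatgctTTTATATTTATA
chr2:6018334-6018434: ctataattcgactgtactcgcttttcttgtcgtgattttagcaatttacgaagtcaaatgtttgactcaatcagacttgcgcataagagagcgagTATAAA
chr1:11620232-11620332: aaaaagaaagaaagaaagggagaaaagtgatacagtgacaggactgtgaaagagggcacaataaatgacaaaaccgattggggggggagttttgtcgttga
chr3:11510220-11510320: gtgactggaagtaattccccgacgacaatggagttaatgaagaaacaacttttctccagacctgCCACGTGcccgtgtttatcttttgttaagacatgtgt
chr2:4005992-4006092: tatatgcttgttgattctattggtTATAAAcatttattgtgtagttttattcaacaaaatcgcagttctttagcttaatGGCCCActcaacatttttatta
chr5:14089359-14089459: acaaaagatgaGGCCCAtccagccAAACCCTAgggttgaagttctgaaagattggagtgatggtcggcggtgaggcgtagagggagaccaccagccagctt
chr3:14811580-14811680: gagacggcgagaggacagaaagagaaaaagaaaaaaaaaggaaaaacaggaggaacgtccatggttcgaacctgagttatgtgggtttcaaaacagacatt

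MBD9 summits were sparse in the pericentromere. The intervals span 31.1 Mb, or 26.1% of the nuclear genome, and held 6.72% of all summits. This is 30.2 summits per Mb, against 148 per Mb on the arms, and the ratio of these densities was 0.204 (exact interval 0.191 to 0.218). When only uniquely mappable bases were counted, the density was 35.9 per Mb in the pericentromere and 152 per Mb on the arms, with a ratio of 0.236 (0.221 to 0.252). Relative to protein-coding genes the difference was smaller. There were 0.278 summits per protein-coding gene in the pericentromere and 0.543 on the arms, a ratio of 0.512 (0.479 to 0.547). Counting unique bases moved the ratio little and counting genes moved it more, and by each measure the pericentromere stayed below the arms.

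The same order was seen on each chromosome. Chromosome 1 had 225 pericentromeric summits (36.3 per Mb), chromosome 2 had 154 (25.2 per Mb), chromosome 3 had 229 (32.7 per Mb), chromosome 4 had 132 (27.5 per Mb) and chromosome 5 had 200 (28.6 per Mb). The arm densities of the 5 chromosomes lay between 146 and 152 per Mb. The lowest ratio was that of chromosome 2, at 0.166 (0.140 to 0.196), and the highest that of chromosome 1, at 0.249 (0.216 to 0.285), and these intervals did not overlap. Each interval also held a long stretch with no summit at all. It measured 2233 kb on chromosome 3, between positions 12457258 and 14689981, and 1512 kb on chromosome 5, 1298 kb on chromosome 1, 1022 kb on chromosome 2 and 807 kb on chromosome 4.

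Summits thinned out steadily from the borders toward the centre of the intervals. In the outermost 0.5 Mb inside the borders there were 75.6 summits per Mb (68.2 to 83.6), against 106 per Mb (97.5 to 116) in the adjoining 0.5 Mb of the arms. Further inward, in steps of 0.5 Mb, the density was 54.2, 30.8, 16.8, 7.5 and 4.0 per Mb, and beyond 3 Mb a single summit was left (0.435 per Mb). Protein-coding genes thinned out over the same steps, with 207 per Mb in the outermost step and 24.3 per Mb in the innermost, whereas pseudogenes became denser, with 59.0 per Mb and 169 per Mb in those steps. The number of summits per gene fell as well. It was 0.366 in the outermost step, 0.256 between 1 and 1.5 Mb, 0.120 between 2 and 2.5 Mb and 0.0179 beyond 3 Mb, so summits thinned out faster than genes. The uniquely mappable share was 92.1% in the outermost step and 68.6% in the innermost, and its part in the decline per gene was not tested. Summit scores did not follow this order over all steps. The median score was 8.46 in the outermost step and rose to 10.6 between 1 and 1.5 Mb. It then fell at each further step, to 7.09 for the single summit beyond 3 Mb.

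**Figure D1:**
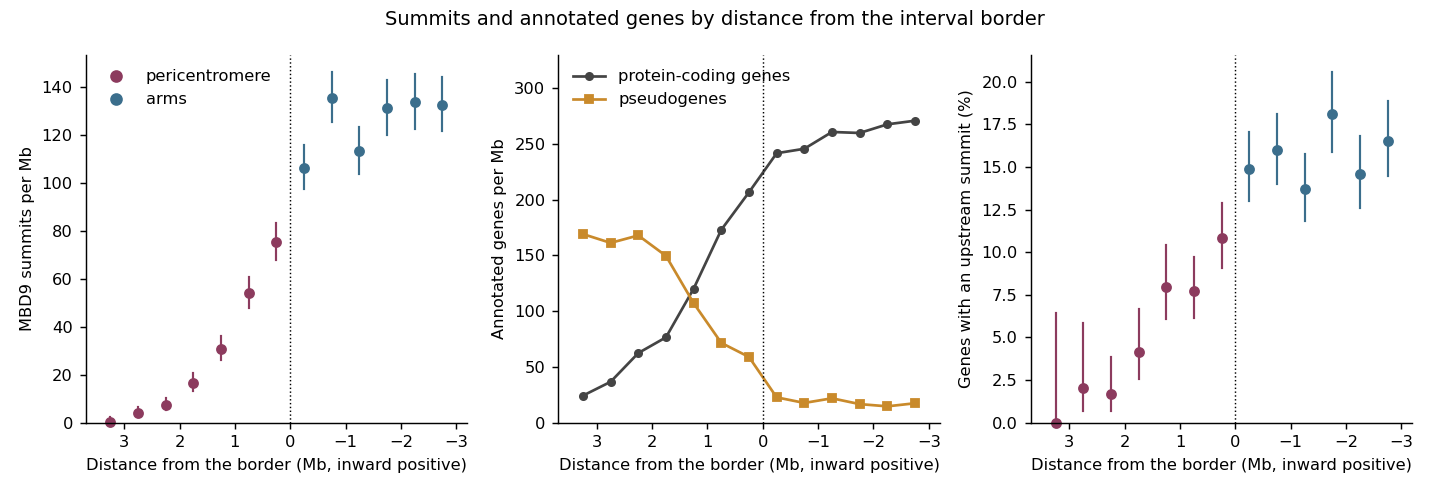
Summits and genes by distance from the interval border, summed over the 5 chromosomes in steps of 0.5 Mb, with the inside of the intervals at the left and the arms at the right of the dotted line. The left panel gives MBD9 summits per Mb with exact 95% Poisson intervals, the middle panel annotated genes per Mb, and the right panel the percentage of protein-coding genes with a summit within 1 kb upstream with 95% Wilson intervals. Summit density falls from the border inward to 0.435 per Mb, while pseudogenes reach 169 per Mb.

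The summits were spread unevenly within the intervals. Of 311 bins of 100 kb, 136 (43.7%) held no summit, while 29 bins with 10 or more summits held 406 of the 940 (43.2%). The fullest bin, with 24 summits and 28 protein-coding genes, lay at the outer edge of the chromosome 2 interval, and the next, with 22 summits and also 28 such genes, at the edge of the chromosome 3 interval. Of 20 bins without a protein-coding gene, 1 had a summit, and it was 1 summit. Bins with 1 to 5 protein-coding genes averaged 0.447 summits, those with 6 to 10 averaged 1.67, those with 11 to 15 averaged 3.54, those with 16 to 20 averaged 5.33, and those with over 20 averaged 7.73. Summits per gene were also higher in fuller bins, from 0.160 in bins with 1 to 5 genes to 0.313 in bins with over 20. Arm bins with over 20 protein-coding genes averaged 14.8 summits, or 0.530 per gene. At a like number of genes, pericentromeric bins thus held fewer summits than arm bins.

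**Figure D2:**
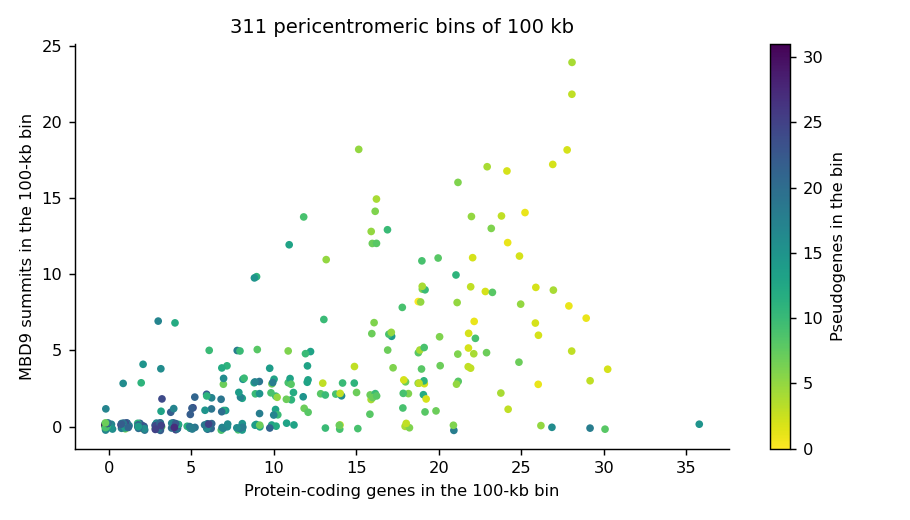
MBD9 summits against protein-coding genes in each of 311 bins of 100 kb that tile the pericentromeric intervals, coloured by the number of pseudogenes in the bin, with small random offsets so that points do not hide each other. Many bins rich in pseudogenes lie near 0 summits, though a bin of chromosome 5 with 15 pseudogenes holds 10. In addition, 7 bins with over 20 protein-coding genes hold none.

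Of the 7 bins with over 20 protein-coding genes and no summit, 3 lie next to each other on chromosome 2 and hold 27, 29 and 36 such genes. They coincide with a large insertion of mitochondrial DNA, found here as the stretch from 3239038 to 3509765 (271 kb), in which 95.9% of 50-mers also occur in the mitochondrial genome. No summit lay in it, and none of its 94 annotated protein-coding genes had an upstream summit, which allows a share of up to 3.19% (3 counts). Within the nuclear genome 86.3% of its 50-mers were unique, and the authors had left the organelle genomes out of the alignment. Without this stretch, the ratio of summits per gene was 0.526 (0.492 to 0.563), and the density ratio 0.206 (0.192 to 0.220). Of the 7 bins, the one from 12700001 on chromosome 1 had 48.8% unique 50-mers, and the one from 14300001 on chromosome 5 had 31.7%. Fewer positions there could take a uniquely mapped read, and the part of this in the missing summits was not tested. The bins from 17300001 and 17500001 on chromosome 1 had 97.9% and 91.8%.

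Each summit was assigned to 1 position class by the order promoter (from 1 kb before to 100 bp after a TSS, the transcription start site), transcription termination site (TTS, from 100 bp before to 1 kb after a gene end), coding exon, 5′ UTR, 3′ UTR, non-coding exon, intron and intergenic, over genes of all types. The promoter class held 381 of the pericentromeric summits, or 40.5% (37.4 to 43.7), against 47.1% (46.3 to 48.0) on the arms, a difference of -6.61 percentage points (-9.82 to -3.32). The intergenic class held 12.0% (10.1 to 14.3) and 13.2% (12.7 to 13.8) of summits, and the interval of the difference, -3.22 to 1.10 percentage points, included 0. Coding exons held 14.7% of pericentromeric summits, against 11.4% on the arms, a difference of 3.32 percentage points (1.13 to 5.78). Introns held 6.49% and 4.29% of summits in the pericentromere and on the arms, with a difference of 2.20 percentage points (0.75 to 3.99). The TTS class, at 17.4% and 17.2%, and the 5′ UTR class, at 4.47% and 4.11%, differed by less than counting error. Summits within the pericentromere thus took up similar places relative to genes as on the arms, with somewhat fewer in promoters and somewhat more in gene bodies.

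The bases of the 2 regions are made up very differently, and the shares read differently against them. Coding exons take up 7.79% of pericentromeric bases, against 21.6% of arm bases, so that coding exons carried 56.9 summits per Mb in the pericentromere and 77.9 per Mb on the arms. Their densities were thus much closer than those of the regions as wholes. Promoters had 47.5 summits per Mb in the pericentromere and 217 per Mb on the arms. Intergenic bases had 18.1 and 250 per Mb, which was a wider gap than in any other class but one. The widest was in non-coding exons, which include the bodies of pseudogenes, with 1.67 per Mb in the pericentromere and 59.0 per Mb on the arms. They make up 21.1% of pericentromeric bases and held 11 summits (1.17%).

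**Figure D3:**
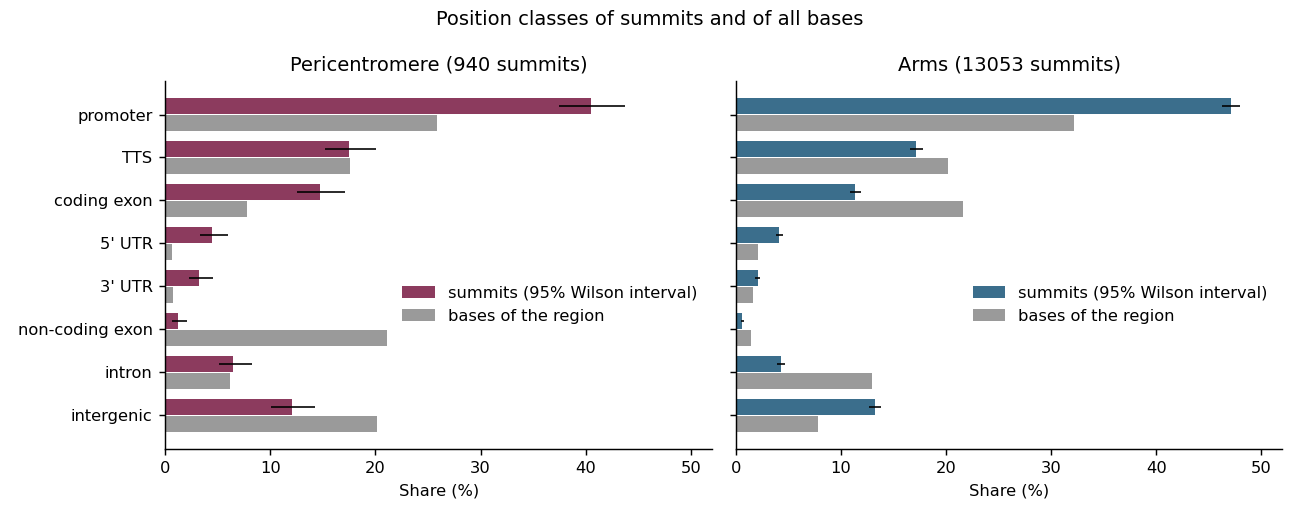
Share of MBD9 summits (coloured bars, with 95% Wilson intervals) and of all bases (grey bars) in each position class, in the pericentromere (left panel) and on the arms (right panel). Summit shares look alike in both panels, with 40.5% and 47.1% in promoters, whereas non-coding exons take 21.1% of pericentromeric bases and 1.17% of the summits.

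Annotated pseudogenes, which include transposon-derived genes, carried few summits. Pseudogenes cover 27.5% of pericentromeric bases, yet 13 of the 940 summits (1.38%, 0.810 to 2.35) lay inside one. On the arms, where pseudogenes cover 2.16% of bases, 20 of 13053 summits did (0.153%, 0.0992 to 0.237). The larger pericentromeric share, by 1.23 percentage points (0.651 to 2.20), goes with the many more pseudogene bases there. Per Mb of pseudogene there were 1.52 summits in the pericentromere and 10.5 on the arms. Some of these summits were also in or within 1 kb upstream of a protein-coding gene. Without those, 9 pericentromeric summits (0.957%) and 17 arm summits (0.130%) lay inside a pseudogene. Counted by gene, 9 of 3777 pericentromeric pseudogenes had a summit inside (0.238%, 0.125 to 0.452), against 11 of 1066 on the arms (1.03%, 0.577 to 1.84), where the share over all 5 chromosomes was 0.413%. The difference was -0.794 percentage points (-1.61 to -0.291). With only summits that score at least 10, it was -0.161 (-0.655 to 0.0226), and that in summits inside pseudogenes was 0.193 (-0.0218 to 1.29), so that both intervals included 0. Without chromosome 2 the second difference was 0.472 (0.0960 to 1.32). Among pseudogenes with at least 90% unique 50-mers, the count was the same 9 of 2122 in the pericentromere (0.424%). A summit within 1 kb upstream was found at 21 pericentromeric pseudogenes (0.556%), against 7.04% of those on the arms.

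The 9 pericentromeric pseudogenes with a summit inside had none that scored at least 50. Their highest score was 18.6, at AT2G15800 on chromosome 2 (6880825 to 6882741), which held 4 of the 13 summits. The upper quartile of all pericentromeric scores was 18.5. This pseudogene overlaps the protein-coding gene AT2G15790, which had 3 summits within 1 kb upstream, with the score of 18.6 at -196 bp. Next came AT3G29105 (chromosome 3, 11081010 to 11081545) and AT5G35935 (chromosome 5, 14083388 to 14089891), each with a top score of 8.72. AT2G10405 and SADHU1-1 (AT2G10410, chromosome 2, 4005995 to 4007044) overlap and share 1 summit with a score of 6.81, which is the fifth sequence shown. SADHU1-1 is annotated as a member of Sadhu, a family of non-coding retrotransposons. A second Sadhu element, SADHU2-1 on chromosome 1 (AT1G35112), held a summit with a score of 3.59, at 10912 bp from the nearest protein-coding gene. The other 3 were AT4G04692, AT2G06045 and AT2G15810, with top scores of 6.41, 5.45 and 5.07. AT2G06045 ends close to AT2G06050, with the summit 52 bp away from that gene.

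The genes embedded in the pericentromere carried most of its summits. Of the 940, 687 (73.1%, 70.2 to 75.8) lay inside a protein-coding gene or within 1 kb upstream of one and not at a pseudogene, in 28.9% of the bases. On the arms the share was 73.4% (72.6 to 74.2), in 80.6% of the bases. A further 190 (20.2%) lay at no gene of any type, 31 (3.30%) at other gene types alone, 16 (1.70%) at both a protein-coding gene and a pseudogene, and 16 (1.70%) at a pseudogene alone. Of all pericentromeric summits, 49.1% (46.0 to 52.3) lay inside a protein-coding gene, against 43.1% on the arms, and 28.9% (26.1 to 31.9) upstream of one, against 37.0% on the arms.

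Seen from the genes, 251 of 3385 pericentromeric protein-coding genes had a summit within 1 kb upstream (7.42%, 6.58 to 8.35), against 4501 of 24059 on the arms (18.7%, 18.2 to 19.2). The share over all 5 chromosomes was 17.3%. The difference was -11.3 percentage points (-12.3 to -10.2). It was smallest on chromosome 3, with 9.83% in the pericentromere and 18.5% on the arms, and chromosome 2 had the lowest pericentromeric share, 5.81%, against 19.2% on its arms. A summit inside was found at 272 genes (8.04%, 7.17 to 9.00), where the share over all 5 chromosomes was 13.6%. Either kind was found at 454 genes (13.4%, 12.3 to 14.6), against 27.9% on the arms. Of the 251 genes with an upstream summit, 37 (14.7%, 10.9 to 19.7) had 2 or more, against 19.2% (18.1 to 20.4) of such genes on the arms.

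The share varied with the setting of the gene. Genes whose neighbours on both sides were not pseudogenes had an upstream summit in 9.17% of cases in the pericentromere (7.93 to 10.6), those with 1 pseudogene neighbour in 5.30% (4.16 to 6.74) and those with pseudogenes on both sides in 5.57% (3.71 to 8.29). On the arms these shares were 19.1%, 13.8% and 9.23%, the last from 65 genes. With unique upstream sequence (at least 90% of 50-mers), the share was 8.50% in the pericentromere and 19.2% on the arms, so it stayed lower where reads could be placed. Depth in the interval went with a lower share as well. Among genes with unique upstream sequence and no pseudogene neighbour, 10.9% (9.24 to 12.8) had an upstream summit within 1 Mb of the border, 9.51% (6.78 to 13.2) between 1 and 2 Mb, and 2.65% (0.91 to 7.52) beyond 2 Mb, the last being 3 of 113 genes. Short genes had fewer. The share was 3.63% for genes up to 1 kb and 9.93% for genes over 3 kb in the pericentromere, and 12.7% and 21.4% for these lengths on the arms. Pericentromeric genes were also shorter than arm genes, with a median length of 1714 bp against 2120 bp, and the part of gene length and of expression in the difference between the regions was not tested.

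**Figure D4:**
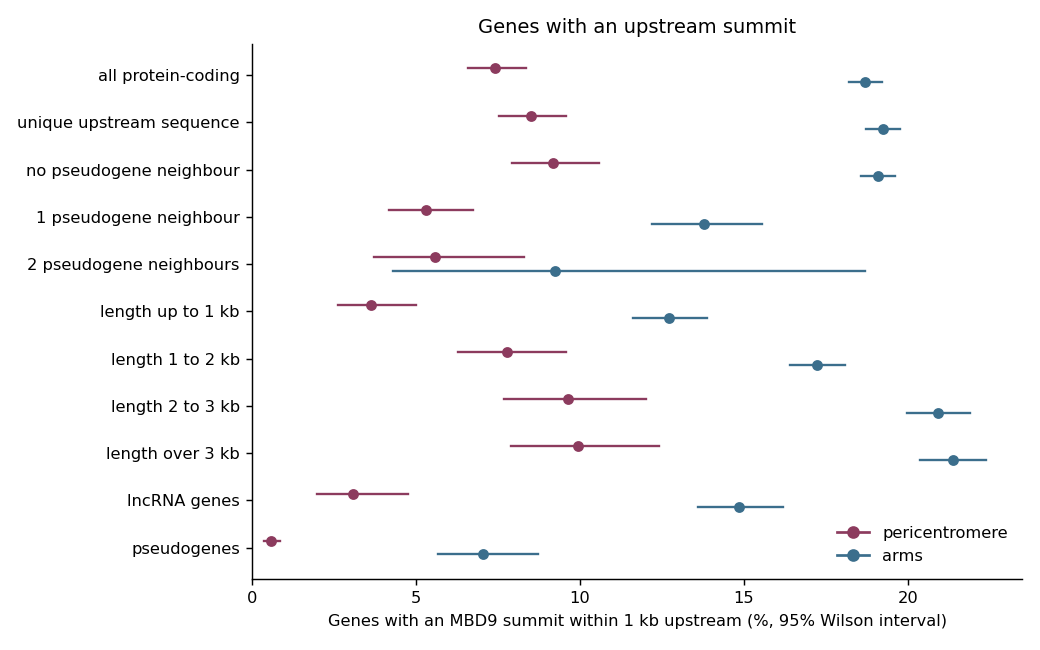
Percentage of genes with an MBD9 summit within 1 kb upstream (points) with 95% Wilson intervals (lines), for sets of protein-coding genes and for lncRNA genes and pseudogenes, in the pericentromere (upper, dark red) and on the arms (lower, blue). The pericentromeric value is the lower one in every set, and only the intervals for genes with 2 pseudogene neighbours overlap.

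Around the TSS of protein-coding genes, summits were most frequent in the 100 bp just before it in both regions, with 92 summits in the pericentromere and 1131 on the arms in that bin. The shape on either side differed. In the pericentromere there were 57.6 summits per 1000 genes in the 500 bp before the TSS and 57.0 in the 500 bp after it, a ratio of 1.01. On the arms there were 142 before and 91.0 after, a ratio of 1.56. Summits further upstream were thus the scarcer part in the pericentromere, with 40.8 per 1000 genes between 1 and 2 kb before the TSS, against 143 on the arms. At the gene end, 29.0 summits per 1000 genes lay in the last 500 bp and 34.3 in the 500 bp after it, against 57.2 and 89.3 on the arms. The start sites of the 3777 pseudogenes had 2.65 summits per 1000 genes before and 1.85 after, from 10 and 7 summits.

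**Figure D5:**
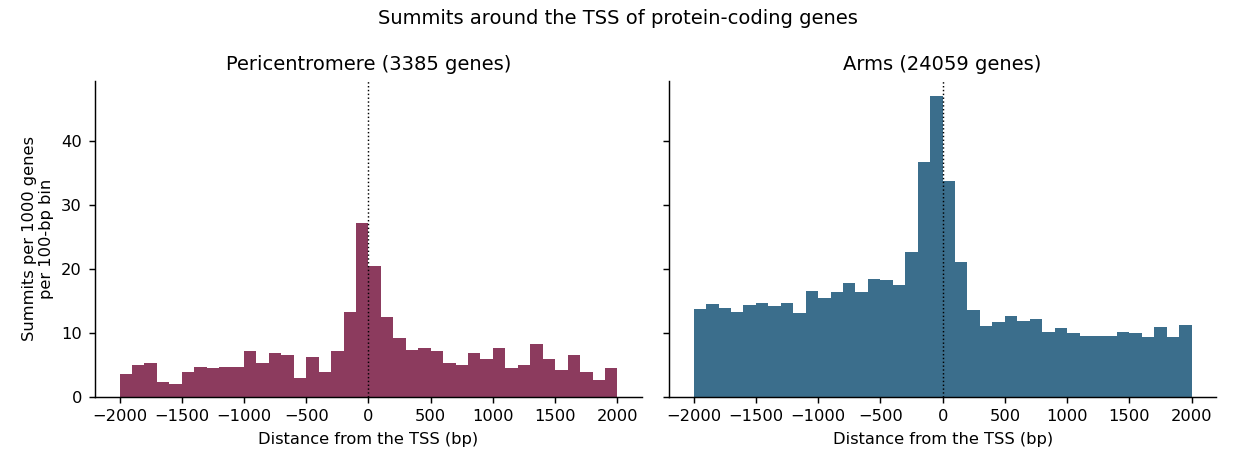
MBD9 summits per 1000 protein-coding genes in bins of 100 bp from 2 kb before to 2 kb after the TSS (dotted line), in the pericentromere (left) and on the arms (right), on the same scale. Both regions peak in the bin just before the TSS, and the excess of upstream over downstream summits seen on the arms (142 against 91.0 within 500 bp) is not seen in the pericentromere (57.6 against 57.0).

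Protein-coding genes of the pericentromere were also sorted into 12 groups by words in the annotation's descriptions. The interval of every group's share with an upstream summit included the 7.42% of all pericentromeric protein-coding genes, so no group is set apart from them by these counts. Among genes described as transcription factors or DNA-binding, 10 of 78 did in the pericentromere (12.8%, 7.12 to 22.0), against 25.2% on the arms. The highest scores in this group were 99.8 at AT4G08250, a GRAS-family gene, 53.9 at *PRE1* (AT5G39860), a small atypical bHLH protein that promotes cell elongation, and 39.9 at *FBH2* (AT4G09180), a bHLH factor. *BZO2H3* (AT5G28770), a bZIP factor, had 19.3 at -15 bp, *TT8* (AT4G09820), a bHLH regulator of flavonoid synthesis, 7.41 at -37 bp, and the MADS-box gene *SEP4* (AT2G03710) 6.33 at -624 bp. Among kinases 14 of 138 had an upstream summit (10.1%, 6.14 to 16.3), against 25.6% on the arms. They included *RIPK* (AT2G05940), a receptor-like cytoplasmic kinase of immune signalling, with a score of 49.9 at -56 bp. Both shares were read from few genes, and the values are given as a description.

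Among the smaller groups, counts were too low to tell from the 7.42% of all pericentromeric protein-coding genes. None of 27 genes described by transposase, reverse transcriptase or gag had an upstream summit or one inside, which allows a share of up to 12.5%. On the arms 4 of 40 had an upstream summit. None of 20 cytochrome P450 genes (up to 16.1%) and none of 24 heat shock or chaperone genes (up to 13.8%) had an upstream summit, against 18.4% and 13.7% of such genes on the arms. At 7.42%, groups of this size would hold few such genes or none. A summit inside was found at 2 of the 20 cytochrome P450 genes (10%, 2.79 to 30.1). F-box genes, whose proteins pick targets for ubiquitination, had an upstream summit in 6 of 107 cases (5.61%, 2.60 to 11.7), against 7.51% on the arms, and this difference was within counting error. Proteins that the annotation calls uncharacterized, a description looked at after the annotation was seen, had one in 31 of 629 cases (4.93%, 3.49 to 6.91), against 15.4% on the arms. This larger set is not among the 12 groups, and its interval lies below the 7.42%. The arm share of such genes (13.9 to 17.0) likewise lay below the 18.7% of all protein-coding genes on the arms. Of 10 genes described by chloroplast or photosystem, *PSBQ-2* (AT4G05180), a subunit of the oxygen-evolving complex of photosystem II, had an upstream summit with a score of 9.38, and 4 of the 10 had a summit inside (40%, 16.8 to 68.7), against 37.7% on the arms.

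The highest-scoring pericentromeric summits lay near genes of varied function. The top one, with a score of 123, lies on chromosome 3 at 11798827, 636 bp upstream of AT3G30165 (11797730 to 11798191, minus strand), annotated as a zinc ion-binding protein. Its sequence, the first shown, holds CACGTG and a separate ACGTGG. The second, with 119 at 16446228 on the same chromosome, falls in the TTS class, 707 bp from *XTH31* (AT3G44990), a xyloglucan endotransglucosylase/hydrolase of the cell wall. The third, with 115 on chromosome 5 at 10648746, lies in *AN3* (AT5G28640, 10647467 to 10650066, minus strand), a transcriptional coactivator that promotes leaf cell proliferation, at 1320 bp after the TSS and in a 5′ UTR. *TPR3* (AT5G27030), a TOPLESS-related corepressor, followed with 114 at -59 bp.

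*AGL44* (AT2G14210, chromosome 2, 6018558 to 6023863, plus strand), also known as *ANR1*, a MADS-box gene of the root response to nitrate, had a score of 114 at -174 bp. The window shown second holds a TATAAA. The highest of chromosome 1, with 110 at 11620282, was intergenic, 2863 bp from *RCD1* (AT1G32230), a regulator of oxidative stress responses. On chromosome 4 the highest was 99.8 at 5196602, at -185 bp of AT4G08250 and inside the neighbouring gene AT4G08240. AT3G45260, a C2H2-like zinc finger gene, had 91.9 at -514 bp, and the last of the 10 highest were 84.0 at 1500088, only 87 bp from the border of the chromosome 4 interval, and 80.0 at 1514820. Near the borders, 104 summits lay in the first 100 kb inside and 81 in the first 100 kb outside, over all 5 chromosomes.

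The remaining genes among the 10 with the strongest upstream summits had scores between 65.0 and 70.7. *AFP3* (AT3G29575), a negative regulator of abscisic acid signalling, had 70.7 at -70 bp and pseudogenes as both neighbours. *FBS3* (AT4G05010), an F-box gene, had 70.6 at -59 bp, and *TPC1* (AT4G03560), a vacuolar cation channel, 65.7 at -49 bp. *KLCR2* (AT3G27960), a kinesin light chain-related gene, had 65.7 at -966 bp, and the uncharacterized AT4G09965 had 65.0 at -63 bp.

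In strength the pericentromeric summits differed little from those on the arms. The median score was 9.17 (quartiles 4.83 and 18.5), against 10.2 (5.44 and 21.0) on the arms. Scores of at least 10 were reached by 44.7% (41.5 to 47.9) in the pericentromere and 50.9% (50.03 to 51.7) on the arms, and scores of at least 50 by 6.28% (4.90 to 8.01) and 6.17% (5.77 to 6.59). The highest score was 123 in the pericentromere and 197 on the arms. Weak summits were thus somewhat more frequent, while strong ones made up the same share to within counting error. The DNA within 50 bp on either side of a summit had a mean GC content of 38.1% ± 8.02 in the pericentromere and 38.5% ± 8.20 on the arms (SD over 940 and 13053 summits), where windows tiled over the regions averaged 36.0% in each.

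Of 711 pericentromeric peaks, 153 had more than 1 summit (21.5%, 18.7 to 24.7), against 23.5% (22.7 to 24.4) on the arms, and 16 had 4 or more. These 16 lay over protein-coding genes. The peak with most summits, 8 within 2385 bp and with scores from 3.21 to 26.8, covered *ILL6* (AT1G44350), an amidohydrolase that cleaves amino acid conjugates of jasmonate and auxin. Peaks with 6 summits lay at AT3G45730 and AT3G45740 (top score 34.7) and over AT4G08850, a leucine-rich repeat receptor-like kinase gene (top score 52.6). Peaks with 5 lay over AT1G33600, AT3G29240, *ERD5*, AT3G46600, *RDUF1* (AT3G46620), *CNI1* (AT5G27420) and the peroxidase gene AT5G39580. *RDUF1* and *CNI1* encode RING-type ubiquitin ligases, and AT3G46600 a GRAS-family protein. Among those with 4 were *UBQ10* (AT4G05320), a polyubiquitin gene often used as a reference for expression, with scores from 2.45 to 11.2, *EXO* (AT4G08950), a brassinosteroid-responsive gene, with a top score of 48.9, and *NAC6* (AT5G39610), a NAC regulator of leaf senescence, with 41.9.

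More than 2 Mb from the borders, in the gene-poor core of the intervals, 53 summits in 41 peaks were found. The median score of the 53 was 8.05, and 27 of them lay in or within 1 kb upstream of a protein-coding gene. This was a smaller share than over all pericentromeric summits, of which 687 (73.1%) lay at such a gene and not at a pseudogene. The highest score, 79.0, was found upstream of *ERD5* on chromosome 3 (AT3G30775, 12448636 to 12451556, minus strand), which encodes the proline dehydrogenase that starts proline breakdown. Between 12448594 and 12457258, 7 summits had *ERD5* as their nearest protein-coding gene. Of these, 3 lay in the gene with scores of 54.7, 55.4 and 54.6. The others had 8.05 just past the gene end, 59.8 at 354 bp before the gene start, and 79.0 and 40.0 further upstream, at 2363 and 5702 bp from the gene. The last of them borders the summit-free stretch of 2233 kb.

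On chromosome 1, 7 of the 53 summits had *NIA2* (AT1G37130, 14158452 to 14161938, plus strand), which encodes nitrate reductase, as their nearest protein-coding gene. The 2 highest were not at the gene but 8988 bp before it (74.5) and 3541 bp past it (49.8), and the 3 within the gene had scores of 9.38, 3.87 and 4.18. The summit of 74.5 lay closer to the pseudogene AT1G37120, at -3463 bp from its TSS. On chromosome 5, *SAP* (AT5G35770), a regulator of flower and ovule development, held 5 summits with scores between 6.03 and 8.49. *RAP2.9* (AT4G06746), an ERF-family gene on chromosome 4, had 3 in 1 peak with a top score of 24.6. *CHR38* (AT3G42670), also known as *CLSY1*, a chromatin remodeler of RNA-directed DNA methylation, had a summit of 6.18 at -84 bp. The peroxidase-family gene AT3G42570 held a summit of 56.9, at the far end of the stretch of chromosome 3 that has none.

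The share of summits apart from protein-coding genes was like that on the arms. More than 1 kb from any such gene lay 163 summits (17.3%), against 17.0% on the arms. The difference was 0.356 percentage points (-2.02 to 2.99). Such DNA makes up 63.5% of pericentromeric bases and 12.0% of arm bases. Its summit density was therefore far lower in the pericentromere, at 8.25 per Mb against 209 per Mb on the arms. Of the 163, 26 lay more than 5 kb away, 7 more than 10 kb and 1 more than 20 kb. The median scores of these sets were 12.5, 8.15, 5.03 and 4.11. The farthest, at 14811630 on chromosome 3, was 26762 bp from a protein-coding gene and had a score of 4.11. The next, at 4871363 on chromosome 2, was 18704 bp away with 5.03 and lay in a pair of overlapping long non-coding RNA genes. At 17486 bp, the summit at 11510270 on chromosome 3 had a score of 14.7 and lay in the exon of the long non-coding RNA gene AT3G05945. The window around it, the fourth shown, holds a CACGTG that overlaps an ACGTGG. The other 2 of the 5 farthest, both on chromosome 1, lay 63 bp upstream of the pseudogene AT1G46192 with a score of 5.03, and at 14307637, in intergenic DNA, with 17.2.

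CACGTG, the G-box core that bHLH and bZIP factors bind, occurred within 50 bp of 70 pericentromeric summits (7.45%, 5.94 to 9.30), against 9.08% (8.60 to 9.58) on the arms. The difference of -1.63 percentage points had an interval of -3.22 to 0.287. It was -3.33 (-5.29 to -1.06) within 100 bp of the summit, -2.11 (-3.78 to -0.0668) without chromosome 4 and 0.481 (-1.72 to 3.22) with intervals narrowed by 500 kb on each side, so its sign and whether its interval included 0 depended on these choices. Of all windows of the same width tiled over the regions, 0.783% in the pericentromere and 1.22% on the arms held it. ACGTGG, which overlaps it, was found at 5.96% of pericentromeric summits and 8.50% of arm summits, a difference of -2.54 percentage points (-3.97 to -0.776), where 1.50% and 1.96% of windows held it. The intervals of the difference included 0 for TGGGCC (3.51% and 4.33%), TTGACC (7.13% and 7.22%), TATAAA (12.4% and 12.9%), GAGAGA (13.7% and 12.5%) and AAACCCTA (1.06% and 0.751%), given for the pericentromere and then for the arms. Among the tiled windows of the pericentromere and of the arms, TGGGCC was in 1.42% and 1.62%, TTGACC in 4.20% and 4.03%, and TATAAA in 14.3% and 14.1%. GAGAGA was in 7.68% and 9.67%, and AAACCCTA in 1.74% and 1.21%. Against the windows of the pericentromere, CACGTG was thus the most enriched of the 7 at summits, and TATAAA and AAACCCTA were not more frequent there than in the windows. A match describes the letters at a summit and not a bound factor.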

How the data were processed

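The data were the MBD9 summit list of 1 MBD9-3xFLAG library, called against 1 wild-type FLAG library. The authors aligned reads with Bowtie to TAIR10 without organelles, kept uniquely mapped reads, removed duplicates with SAMtools and called peaks with MACS2 (2.1.1) with q below 0.01 and reads extended to 200 bp. The deposited score is -log10 of the q value, with a lowest value of 2.00. Peak widths, coverage and read numbers were not used, so the depth is unknown.

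Summit positions were made 1-based and compared with RefSeq genes of TAIR10.1 (37899 nuclear genes). The chromosome lengths held every summit. Positions were called unique by 50-mers found at 1 nuclear site. Shares carry Wilson intervals, differences Newcombe intervals and ratios exact Clopper-Pearson intervals. No p-value was computed. The counting was tested on simulated data. Named items were the 10 highest-scoring summits, the 10 genes with the strongest upstream summits, the 5 pseudogenes with the strongest summits inside, the 5 summits farthest from protein-coding genes, the strongest summit of each chromosome, and peaks with 4 or more summits. Genes of the 12 word-defined groups, genes over 2 Mb inside the borders, and the pseudogenes after the fifth were named after their values were seen. Members and lists were chosen with earlier results of these data known. Alternatives covered score, borders, chromosomes, upstream windows, gene types and motif width. Python 3.11.15, NumPy 2.4.6, pandas 2.3.3, SciPy 1.17.1 and Matplotlib 3.10.9 were used.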

Additional observations from a re-analysis of the deposited data

How the results depend on the processing

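Under 111 alternatives for 11 results, 89 values stayed within the reported interval (for the median score, within its quartile span) and 22 did not, and 107 kept their direction. With only summits that score at least 10, the density ratio was 0.179, the ratio per gene 0.449 and that per unique Mb 0.207, the difference in genes with an upstream summit -7.32 percentage points, that in summits inside pseudogenes 0.193 and that in pseudogenes with a summit inside -0.161, both with intervals that then included 0. With intervals narrowed by 500 kb on each side, the 3 ratios were 0.149, 0.446 and 0.176, the upstream difference -12.5 and the CACGTG difference 0.481. With intervals widened by as much, the ratios were 0.270, 0.585 and 0.307 and the upstream difference -9.53, so the sizes of these ratios depend on where the borders are set. Without chromosome 1 the ratio per unique Mb was 0.219, and without chromosome 2 the difference in summits inside pseudogenes was 0.472. With upstream windows of 500 bp and 2 kb, the difference in genes was -7.86 and -15.7, and that in summits upstream of any TSS -4.64 and -12.1. With 100 bp on each side of the summit, the CACGTG difference was -3.33, and without chromosome 4 it was -2.11. The intervals of these 2 values did not include 0, as that of the reported value did. The intergenic difference lay between -2.32 and 0.429 over its alternatives and changed sign among them. The mitochondrial stretch was left out as an alternative chosen after seeing the data.

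No paired analysis was possible because the MBD9-3xFLAG line and wild type had 1 library each. Their depth is unknown, so signal below the q value cutoff was not detectable, and reads from repeated sequence had been left out.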

Other observations

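Summits were also counted at non-coding genes of the pericentromere. A summit in or within 100 bp of a tRNA gene was found at 15 of 62 pericentromeric genes (24.2%, 15.2 to 36.2), against 38.7% (34.8 to 42.8) of 563 on the arms. In the gene itself the share was 14.5% (7.83 to 25.3) in the pericentromere, the highest of the gene types with over 60 members there. For long non-coding RNA genes, 27 of 618 had a summit in or within 100 bp (4.37%, 3.02 to 6.28), against 17.9% (16.5 to 19.3) on the arms. Of 65 miRNA genes, 1 had an upstream summit (1.54%, 0.272 to 8.21), against 13.8% on the arms, and 1 had a summit inside (1.54%), against 0.383% on the arms. Small nuclear RNA genes went the other way, with an upstream summit at 2 of 8 (25%, 7.15 to 59.1), against 2.70% on the arms. These types were picked after their values were seen.

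Small secreted proteins of reproduction and defence are abundant among pericentromeric genes, and were looked at after the annotation was seen. Of 41 genes described as ECA1 gametogenesis related, whose relatives act between gametes at fertilization, none had a summit upstream or inside. This allows an upstream share of up to 8.57%, and none of 10 on the arms had an upstream summit. The limit lies above the 7.42% of all pericentromeric protein-coding genes with an upstream summit, so these counts do not tell the 2 apart. Together with defensin-like and thionin genes, 3 of 123 had an upstream summit (2.44%, 0.833 to 6.93), against 10.03% (7.16 to 13.9) on the arms. Defensin-like genes alone had 2 of 23 (8.70%, 2.42 to 26.8), against 1.56% on the arms. Disease resistance genes had 3 of 21 (14.3%, 4.98 to 34.6), against 16.2% on the arms, and the interval included the 7.42% of all pericentromeric protein-coding genes. They were *ADR1* (AT1G33560), a helper immune receptor, with a score of 53.1 at -974 bp, AT2G14080 with 16.3 at -950 bp and AT4G09420 with 14.7 at -77 bp.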
